A study of Mus musculus with 54 samples.

Results

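The 6 testis-specific serine kinase genes of the mouse, Tssk1 to Tssk6, were taken by symbol from both deposited count tables, and all 6 were found among the 23284 genes of each. They were followed through 35 RNA-seq libraries from C57BL/6 males aged 3 months. Of these, 12 came from germ cell-enriched whole testis suspensions and 23 from purified round spermatids (RS) and spermatocytes (SC). The 4 genotypes were wild type (WT), Ctcf +/- (CTCF HET), Boris -/- (BORIS KO) and the compound mutant Ctcf +/- Boris -/- (CM), with 3 libraries of each genotype in each preparation except for WT SC, which had 2. CM mice came from crosses of CTCF HET females with BORIS KO males, and each whole testis preparation pooled 4 mice. In addition, 7 lists of ChIP-seq peaks from WT and CM testes were searched at the 6 genes.

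TSSK proteins are protein kinases made almost only in male germ cells after meiosis. TSSK1 and TSSK2 bind and phosphorylate the testis protein TSKS, and mice without both are sterile. TSSK6 is needed for the packing of spermatid chromatin, and its cochaperone is TSACC. CTCF is the zinc finger protein that organises chromatin loops, and BORIS, encoded by Ctcfl, is its germ cell paralog.

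Levels are CPM, each gene's count as a share of its library's total, scaled by the TMM method within each table. The whole testis libraries were depleted of ribosomal RNA and the RS and SC libraries were made from poly(A) RNA, so no level was compared between the tables. Total counts ran from 10437683 to 42055813 in whole testis, 47740650 to 98545423 in RS and 53337530 to 88946702 in SC. In whole testis Ctcf was at 40.9 to 45.1 CPM in WT, 22.9 to 30.3 in CTCF HET and 24.3 to 26.8 in CM. In the purified cells it did not follow the labels throughout. In RS it was at 28.4 to 48.0 CPM in WT, 38.4 to 171 in the libraries labelled CM and 21.8 to 33.1 in those labelled CTCF HET. In SC it was at 33.6 and 36.0 CPM in WT, 34.8 to 89.3 in the libraries labelled CM and 29.9 to 49.5 in those labelled CTCF HET. Directions drawn from the purified CTCF HET and CM libraries rest on those labels. Ctcfl was at 2.06 to 2.38 CPM in BORIS KO RS and 2.80 to 4.91 in WT RS. In the RS libraries labelled CM it was at 1.07 to 2.54 CPM, and in those labelled CTCF HET at 2.56 to 3.39. Rltpr, the gene beside Ctcf, was singled out after its values were seen, and was at 28.6 to 104 CPM in every CTCF HET and CM library and at most 2.94 in all others. The SC libraries labelled CTCF HET detected 12018 to 13406 genes, and those of WT 17631 and 17683. Markers of spermatogonia summed to 910 CPM in the second RS library labelled CM and to 41.8 to 160 in the other RS libraries.

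Tssk1 and Tssk2 lie next to each other on chromosome 16, at chr16:17894296-17895744 and chr16:17898730-17900116 in mm9. Both are single-exon genes on the plus strand, 2986 bp apart. Their coding sequences were identical at 82.0% of aligned bases, with a longest identical run of 113 bases, so reads from the pair may be shared and their separate values are uncertain. The other pairs of family members were 61.4 to 66.9% identical, with no shared run over 14 bases. Just upstream of both starts stands the 8-base sequence TGACTTCA, which was picked after these promoters had been read. The stretches are shown to let the pair of promoters be compared, with this sequence, on either strand, in capitals:

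Tssk1, chr16:17894239-17894295, plus strand: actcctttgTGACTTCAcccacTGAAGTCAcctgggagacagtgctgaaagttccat

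Tssk2, chr16:17898640-17898729, plus strand: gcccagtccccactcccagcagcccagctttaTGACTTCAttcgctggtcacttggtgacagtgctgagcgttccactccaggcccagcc

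In the Tssk1 promoter it lies at -48 bp from the start on the plus strand and at -35 bp on the minus strand, and in that of Tssk2 at -58 bp. Of 22380 promoters of protein-coding genes, taken from 250 bases before to 50 after the start, 1.37% held it on either strand. TGACGTCA, the full cAMP response element bound by CREM, a regulator of spermatid genes, was in 2.32% of promoters and in 0 of the 6 Tssk promoters. Its first part, TGACG, was in 23.3% of promoters and, of the 6, in that of Tssk6, at -73 bp.

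The remaining genes lie apart from the pair. Tssk3 is a gene of 2 exons on the minus strand at chr4:129166258-129168266, Tssk4, whose product phosphorylates the tail protein ODF2, one of 3 exons on the plus strand at chr14:56269019-56271376, and Tssk5 one of 8 exons on the minus strand at chr15:76202388-76205368. Tssk6 is a single exon on the plus strand at chr8:72426083-72427415. It overlaps Ndufa13, a subunit of mitochondrial complex I on the other strand, by 375 bp, and since the use of strand in counting is not stated, reads from the overlap cannot be assigned.

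The place of each gene in spermatogenesis was read from RS against SC. All 6 genes were higher in RS in WT, where 35.8% of all 16052 genes tested were. Tssk2 was at 152, 165 and 155 CPM in WT RS and at 2.96 and 3.06 CPM in WT SC. These ranges stand far apart, and the fitted difference was 55.8-fold (log2 5.80 ± 0.13 SE, adjusted p = 1.19e-07, edgeR quasi-likelihood test with Benjamini-Hochberg adjustment over all genes, used throughout). Tssk4 had the largest difference of the 6, 61.4-fold (log2 5.94 ± 0.19), with 103, 84.4 and 83.6 CPM in RS and 1.76 and 1.37 in SC. Tssk3 was at 44.8, 35.3 and 31.8 CPM in RS against 0.875 and 0.627 in SC, and Tssk5 at 7.03, 7.82 and 8.80 against 0.175 and 0.16. Tssk1, at 174, 111 and 128 CPM in RS, kept the highest level of the family in SC, 7.76 and 8.31 CPM, and differed 18.3-fold. Tssk6 differed least, 6.86-fold, and was scarce in both, at 0.877, 0.986 and 0.750 CPM in RS and 0.121 and 0.147 in SC.

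The median log2 difference of the 6 genes in WT was 5.68, and that of all genes tested 0.02. The 13 late spermatid genes listed, among them the protamines and transition proteins, which replace histones, were all higher in RS, with a median of 4.93. Of 9 partners and substrates of the kinases, 3 were higher in RS and 3 lower, near the shares of all genes (35.8 and 34.2%). The other 3 passed in neither direction, and the median of the 9 was -0.04. Only Tsks among these 9 changed by more than 1 log2 unit, with log2 4.58 ± 0.12.

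The stage difference was also found in the other genotypes. In CTCF HET 6 of 6 genes were higher in RS (all genes, 29.7%), in BORIS KO 6 of 6 (41.7%) and in CM 4 of 6 (16.0%), with median log2 differences of 4.29, 4.8 and 3.16. In CM, Tssk5 (log2 3.24 ± 1.27, adjusted p = 0.0947) and Tssk6 (log2 4.81 ± 1.96, adjusted p = 0.106) did not pass. Tssk6 had 0 counts in all 3 SC libraries labelled CTCF HET. Its mean of 1.19 CPM in the RS libraries with that label was at least 20.9-fold higher than the level of 3 counts per library, which covers counting error only.

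**Figure D1:**
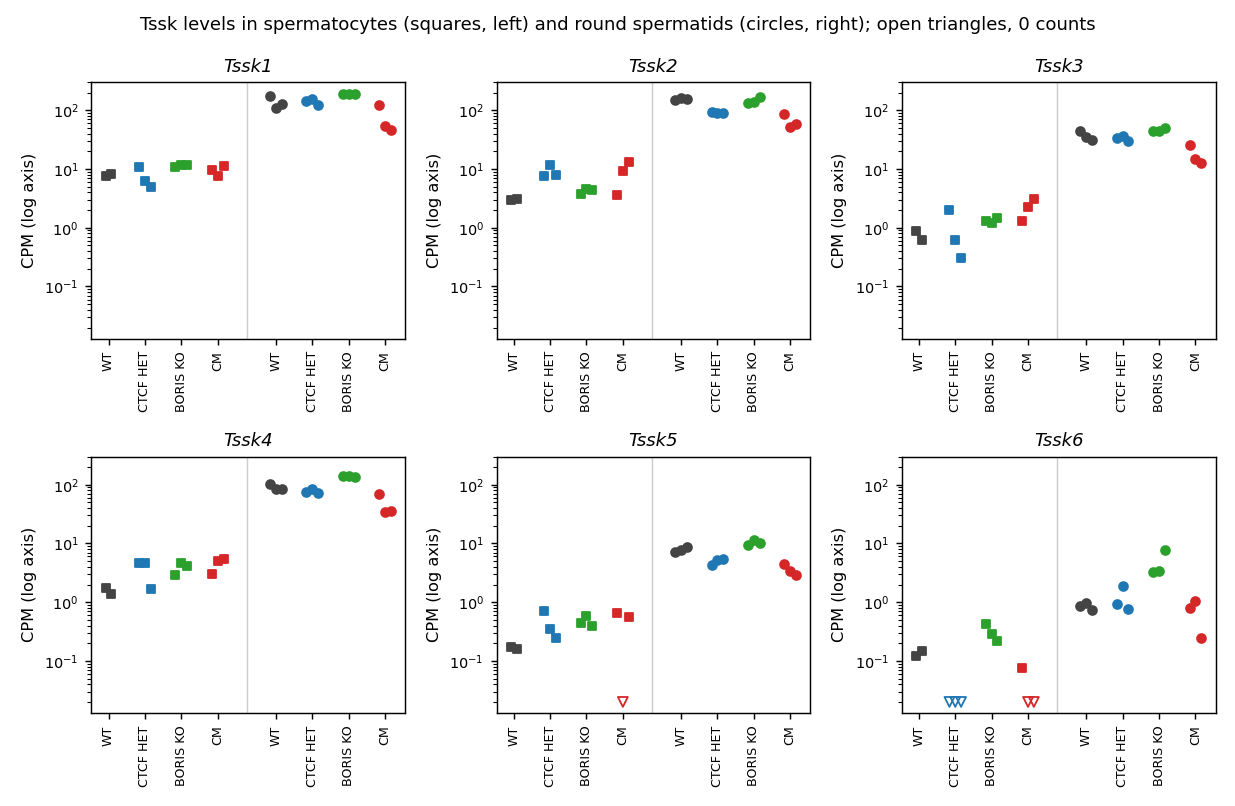
CPM on a log axis for each Tssk gene in every SC (squares) and RS (circles) library, by genotype, with open triangles for libraries at 0 counts. Each gene lies higher in RS than in SC in every genotype, Tssk5 and Tssk6 in CM without passing the test, from 0.121 and 0.147 to 0.750 or more CPM for Tssk6 in WT and from 2.96 and 3.06 to 152 or more CPM for Tssk2.

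Per kilobase of exon, the order in whole testis was Tssk2, Tssk6, Tssk1, Tssk3, Tssk4 and Tssk5 in each of the 4 genotypes. The ranges of Tssk6 and Tssk1, and of Tssk1 and Tssk3, overlapped in each, and those of Tssk2 and Tssk6 in CTCF HET. In WT RS the order was Tssk2, Tssk1, Tssk4, Tssk3, Tssk5 and Tssk6, where only the first pair overlapped. In RS of the other 3 genotypes Tssk1 stood before Tssk2, with ranges that overlapped in CM alone. Tssk6 made up 5.43 to 31.8% of the summed CPM of the family in whole testis and 0.16 to 1.38% in RS, in libraries that differ in RNA selection and in the cells they hold.

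Whole testis was compared first between each single mutant and WT. In CTCF HET 0 of 6 genes passed (all genes, 0.00621%), with log2 changes from -0.06 ± 0.21 for Tssk4 to 0.42 ± 0.64 for Tssk6. None of the 6 passed an unadjusted p of 0.05 there, against 424 of 16097 genes, and DESeq2 called 0 of 6. In BORIS KO 0 of 6 passed as well (0.0551%), 1 of 6 at an unadjusted p of 0.05 against 2717 of 16344 genes, and DESeq2 called 0. That gene was Tssk4, at 71.0, 85.9 and 80.4 CPM against 94.1, 113 and 116 in WT, with a log2 change of -0.44 ± 0.17 and an adjusted p of 0.263. With the replicate number as a block it was -0.43 ± 0.11 with an adjusted p of 0.0492, where 3.57% of all genes were called lower.

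In CM testes 2 of the 6 genes, Tssk2 and Tssk4, were lower in the main test, which had no replicate block. Tssk2 was at 379, 593 and 563 CPM against 1260, 1010 and 969 in WT, and Tssk4 at 34.2, 64.9 and 53.9 CPM against 94.1, 113 and 116. Both sets of CM libraries lay below all WT libraries. Tssk2 was 2.13-fold lower (log2 -1.09 ± 0.27, adjusted p = 0.0234) and Tssk4 2.13-fold lower (log2 -1.09 ± 0.28, adjusted p = 0.0263). Of all genes 8.8% were called lower.

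The other 4 members did not pass without a replicate block. Tssk3, needed for male fertility in mice, was at 64.3, 217 and 189 CPM in CM against 336, 302 and 348 in WT (log2 -1.08 ± 0.41, adjusted p = 0.0807). The paper, which tested with DESeq2, names Tssk3 among the genes deregulated in CM and also measured it by RT-qPCR. Tssk1 was at 59.6, 253 and 286 CPM against 266, 460 and 495 (log2 -1.04 ± 0.52, adjusted p = 0.164). Tssk6 was at 32.2, 265 and 284 CPM against 211, 381 and 666 (log2 -1.13 ± 0.71, adjusted p = 0.252). The CM and WT ranges of Tssk1 and Tssk6 overlapped, and those of Tssk3 did not. Tssk5, with the narrowest set of CM libraries, was nearest to WT, at 24.6, 24.8 and 23 CPM against 30.0, 31.7 and 32.4 (log2 -0.39 ± 0.21, adjusted p = 0.180).

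Replicate 1 gave the lowest Tssk1 and Tssk6 levels in all 4 genotypes, and in whole testis same-numbered libraries deviated together. With the replicate number as a block 5 of 6 genes were called lower in CM (all genes, 19.2%). Tssk1 was then at log2 -1.28 ± 0.30 (adjusted p = 0.00485), Tssk3 at -1.25 ± 0.34 (adjusted p = 0.0138) and Tssk6 at -1.49 ± 0.38 (adjusted p = 0.0109), and Tssk5 did not pass (adjusted p = 0.149). Without the block, no member was called when any 1 of the WT libraries, or CM replicate 3, was left out.

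**Figure D2:**
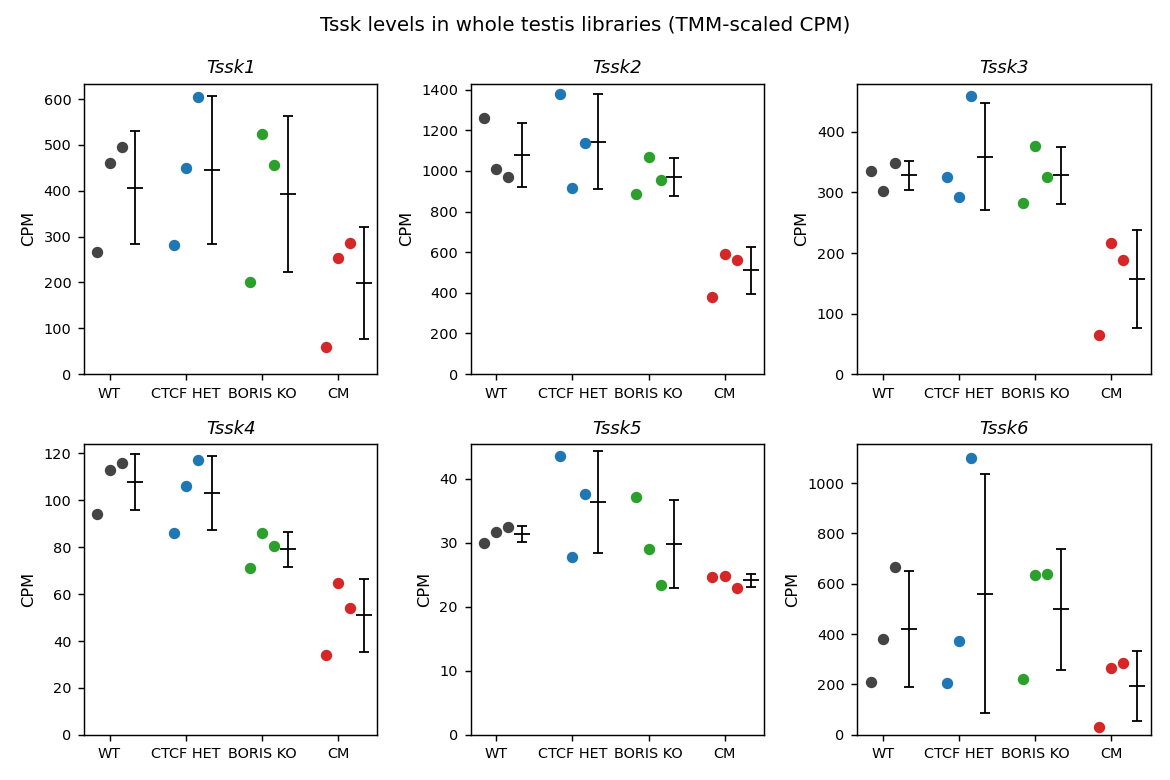
CPM of each Tssk gene in the 12 whole testis libraries, with points for libraries in the order of their replicate numbers and the mean ± SD beside them (n = 3). The CM libraries lie at 379 to 593 CPM for Tssk2 against 969 to 1260 in WT, and the first library of each genotype is the lowest for Tssk1 and Tssk6.

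Against CTCF HET testes, 2 of 6 genes, Tssk2 (log2 -1.18 ± 0.30, adjusted p = 0.0335) and Tssk4 (log2 -1.03 ± 0.30, adjusted p = 0.0478), were lower in CM (all genes, 4.88%). With the replicate block all 6 were called lower (19.6%). Neither was called without any 1 of the CTCF HET libraries or without CM replicate 3. Against BORIS KO testes 0 of 6 passed (0.006%), 3 of 6 at an unadjusted p of 0.05 against 3594 of 16655 genes, and DESeq2 called 1, Tssk2. With the replicate block 4 of 6, Tssk1, Tssk2, Tssk3 and Tssk6, were called lower (3.36%). All of these comparisons share the CM libraries.

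The change in CM beyond the sum of both single mutants was tested as an interaction of the genotypes. Its log2 value was negative for each gene, from -0.52 ± 0.30 for Tssk5 to -1.78 ± 1.06 for Tssk6, with a median of -1.06 against 0.01 over all genes. No member passed (0.0% of 17185 genes did). At an unadjusted p of 0.05 it was 2 of 6, Tssk2 and Tssk3, against 1713 of all genes, and DESeq2 called 38 genes and 0 of the 6.

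Markers of the cells in the suspensions were summed in each library. In CTCF HET and BORIS KO testes 0 genes of these lists passed against WT, where 0.00621 and 0.0551% of all genes did. In BORIS KO testes Leydig cell markers summed to 723 to 1500 CPM, Sertoli cell markers to 406 to 475 and spermatogonia markers to 122 to 168. These sums lay above the WT ranges given below, while those of the other marker lists overlapped WT. The late spermatid genes summed to 22900 to 33000 CPM in WT and 5870 to 16300 in CM testes. In CM 9 of 13 passed as lower, where 8.8% of all genes did, among them Gapdhs, the sperm glycolytic enzyme (log2 -1.52 ± 0.23), and Prm2, a protamine (log2 -1.27 ± 0.31). Leydig cell markers summed to 380 to 610 CPM in WT and 1870 to 3820 in CM, with 5 of 7 called higher, where 16.4% of all genes were, and Sertoli cell markers to 216 to 333 and 534 to 1120, with 3 of 7 higher. Spermatogonia markers summed to 82.9 to 94.5 and 153 to 438, with 2 of 8 higher, a share near that of all genes. Spermatocyte markers summed to 1140 to 1270 CPM in WT and 515 to 1000 in CM, with 1 of 10 lower, near the 8.8% of all genes. Of 6 macrophage markers 4 were higher, with sums of 471 to 652 and 454 to 546 CPM that overlapped. The part of these shifts in the change of the Tssk genes was not tested. Fewer spermatids and less Tssk RNA in each spermatid cannot be told apart in whole testis.

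**Figure D3:**
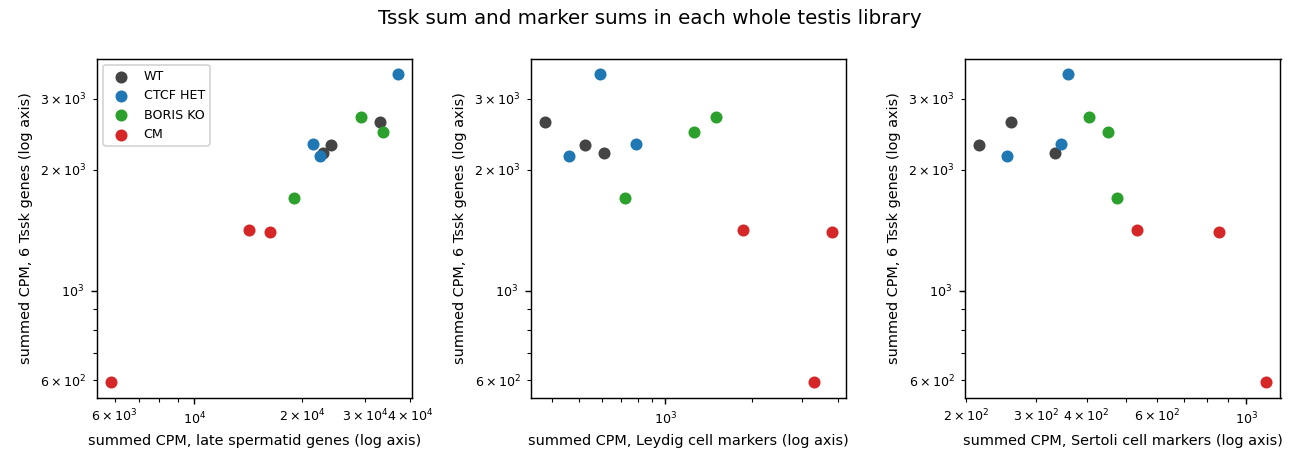
Summed CPM of the 6 Tssk genes (vertical, log axis) against the summed CPM of late spermatid genes, Leydig cell markers and Sertoli cell markers (horizontal, log axes) in the 12 whole testis libraries, 1 point each. The 3 CM libraries have Tssk sums of 593 to 1420 CPM, the lowest late spermatid sums and the highest Leydig and Sertoli sums.

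Genes that act with the kinases were partly lower in CM testes. Of the 9 partners and substrates, 3 fell and 1 rose, where 8.8% of all genes were called lower and 16.4% higher. Tsks, the substrate of TSSK1 and TSSK2, fell from 1130 to 1960 CPM in WT to 478 to 808 in CM (log2 -1.36 ± 0.32), together with Odf2, a tail fibre gene (log2 -1.07 ± 0.29), and Pdpk1, the kinase PDK1 (log2 -0.84 ± 0.23). Hspa8, a chaperone, rose (log2 1.16 ± 0.35). Of 8 transcription regulators of spermatids, 4 fell, namely Fhl5, a CREM coactivator (log2 -1.24 ± 0.29), Sox30, Rfx2 and Ybx2, and Crem itself did not pass (log2 -0.87 ± 0.40, adjusted p = 0.138). The list medians were -0.63 and -0.94 against 0.00 for all genes. Of the 10 genes beside or overlapping the members that were tested, only Mdp1, which lies 5340 bp from Tssk4, passed, and it rose in CM (log2 1.47 ± 0.34). Yjefn3, beside Tssk6, was not tested. Ndufa13 was at log2 -0.13 ± 0.41.

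Purified RS were then used, in which Leydig and Sertoli marker sums were at most 2.59 CPM. Spermatocyte markers still summed to 2250 to 2690 CPM in WT RS, against 4570 and 5680 in WT SC. In the RS libraries labelled CTCF HET 2 of 6 genes were lower (all genes, 12.8%). Tssk2 was at 92.6, 91.8 and 89.5 CPM against 152, 165 and 155 in WT, a narrow set below every WT library, and fell 1.75-fold (log2 -0.81 ± 0.10, adjusted p = 0.00236). Tssk5 was at 4.30, 5.27 and 5.42 CPM against 7.03, 7.82 and 8.80 (log2 -0.68 ± 0.17, adjusted p = 0.0232). With WT replicate 2 or 3, or CTCF HET replicate 1 or 2, left out, 1 member was called. Tssk1 did not pass, at 145, 155 and 124 CPM against 174, 111 and 128 (log2 0.02 ± 0.16), and Tsks fell (log2 -0.51 ± 0.11). The late spermatid genes summed to 1970 to 2270 CPM against 3640 to 4810 in WT, and their part was not tested.

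In BORIS KO RS 3 of 6 genes were higher than in WT (all genes, 26.8%). Tssk6 was at 3.24, 3.44 and 7.74 CPM against 0.877, 0.986 and 0.750 in WT, or 5.35-fold higher (log2 2.42 ± 0.36, adjusted p = 0.000499). Ndufa13, which overlaps it, was also higher, at 28.5 ± 0.368 CPM against 9.42 ± 2.21 (SD, n = 3; log2 1.55 ± 0.16). Tssk4 was at 142, 139 and 136 CPM against 103, 84.4 and 83.6 (log2 0.58 ± 0.10, adjusted p = 0.000879). Tssk1 was at 190, 193 and 191 CPM against 174, 111 and 128 (log2 0.43 ± 0.14, adjusted p = 0.0248).

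These 3 calls depended on the processing. Exons of Tssk6 hold 64.9% G and C bases against 52.6 to 54.8% in the other 5 genes. With the trend of each library on GC content removed, 0 of 6 were higher (16.1% of all genes), Tssk6 was at log2 0.92 ± 0.36 (adjusted p = 0.0699), Tssk1 turned to -0.15 ± 0.12, and Tssk2 was called lower at -0.71 ± 0.11. In a fit of all 4 genotypes only Tssk6 stayed called. Of the 9 partners and substrates 7 fell in BORIS KO RS, where 29.0% of all genes did, with a median log2 change of -0.35, led by Hsp90aa1, a chaperone (log2 -0.86 ± 0.06). The late spermatid genes summed to 1690 to 2790 CPM there. Spermatocyte markers summed to 1300 to 1400 CPM against 2250 to 2690 in WT RS, with 7 of 10 lower and a median log2 change of -1.17. The part of these shifts was not tested.

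In the RS libraries labelled CM 0 of 6 genes passed (0.00654% of 15298 genes did). At an unadjusted p of 0.05, 4 of 6 did, against 3136 of all genes. Tssk2 was at 85.5, 52.2 and 58.5 CPM against 152, 165 and 155 in WT, all below WT (log2 -1.22 ± 0.20, adjusted p = 0.107). Tssk3 was at 26.0, 14.8 and 12.8 CPM (log2 -1.02 ± 0.30), Tssk4 at 68.3, 34.2 and 35.4 (log2 -0.93 ± 0.27) and Tssk5 at 4.48, 3.40 and 2.93 (log2 -1.09 ± 0.33), each below the WT libraries. Tssk1 was at 124, 54.8 and 46.6 CPM (log2 -0.83 ± 0.36), where the first library lay within the WT range. Tssk6 ran from 0.25 to 1.05 CPM, below and above its WT range of 0.750 to 0.986 (log2 -0.24 ± 0.75).

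Replicate 1 was the highest of the CM libraries for each of Tssk1 to Tssk5, and it was also the library with 171 CPM of Ctcf. Without it 4 of 6 genes, Tssk1 to Tssk4, were called lower (3.15% of all genes). With all libraries DESeq2 called Tssk2 to Tssk5 lower, 4 of 6 against 5.75% of the 13123 genes to which it gave an adjusted p, and an edgeR fit of all 4 genotypes called the same 4. DESeq2 made more false calls than its threshold allows in counts simulated from WT RS and WT whole testis, with the same spread set for every gene. Calls made by it alone may be less firm, but the simulation did not use the spread of the CM libraries. The median log2 change of the 6 was -0.97 against 0.00 over all genes, and that of the late spermatid genes, of which 0 of 13 passed, was -1.0. Spermatocyte markers summed to 2450 to 3630 CPM in CM RS against 2250 to 2690 in WT RS, and macrophage markers to 22.6 to 55.6 against 80.9 to 93.2. The median log2 change of spermatogonia markers was 2.29. No gene of these marker lists passed, and the part of these shifts was not tested.

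The interaction in RS was negative for all 6 genes and passed for 4, Tssk1, Tssk3, Tssk4 and Tssk6 (all genes called lower, 18.4%). It was log2 -1.34 ± 0.32 for Tssk4 (adjusted p = 0.00632) and -3.18 ± 0.78 for Tssk6 (adjusted p = 0.00758). With the GC trend removed it passed for 0 of 6 (7.07%). The interaction also counts the rises in BORIS KO RS, which were log2 2.42 for Tssk6, 0.58 for Tssk4 and 0.43 for Tssk1. Tssk6 in CM RS was at log2 -0.24 ± 0.75 against WT, so its interaction value is not the size of a fall in CM.

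**Figure D4:**
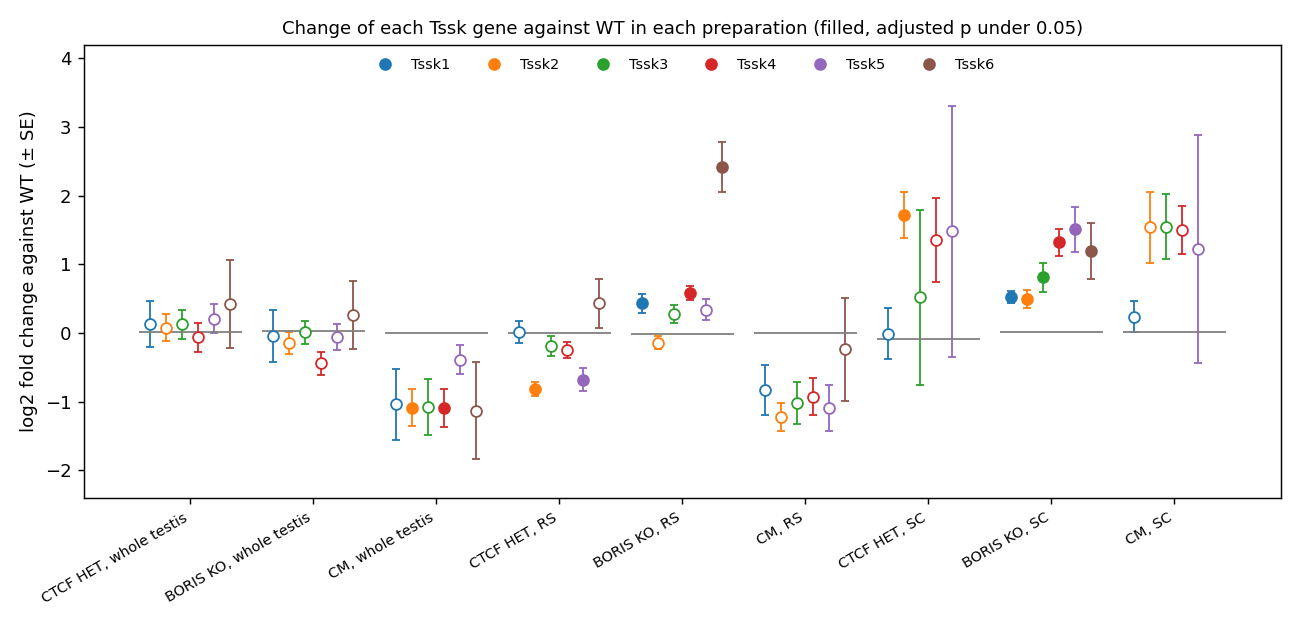
Log2 fold change against WT (± SE) of each Tssk gene for 3 genotypes in whole testis, RS and SC, with filled points for adjusted p under 0.05 and grey lines at the median of all genes tested. The CM values in whole testis and RS lie below 0, with medians of -1.09 and -0.97. Those of the 5 genes tested in SC lie above 0, with a median of 1.5, though Tssk5 is at 1.23 ± 1.66. Tssk6 was not tested in SC of CTCF HET and CM, where its mean was 0 and 0.0248 CPM against 0.134 in WT SC.

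In SC the genes are scarce. In BORIS KO SC all 6 genes were higher than in WT (all genes, 29.1%), from log2 0.49 ± 0.13 for Tssk2 (adjusted p = 0.0064), at 3.70, 4.56 and 4.44 CPM against 2.96 and 3.06, to 1.51 ± 0.33 for Tssk5 (adjusted p = 0.00211), at 0.449, 0.582 and 0.397 CPM against 0.175 and 0.16. Tssk4 was at 2.96, 4.63 and 4.13 CPM against 1.76 and 1.37 (log2 1.32 ± 0.20, adjusted p = 0.000175). Every BORIS KO library lay above both WT libraries for all 6 genes. With the GC trend removed 2 of 6, Tssk4 and Tssk5, were called higher (19.2%), and a fit of all 4 genotypes called 0. The late spermatid genes summed to 77.8 to 98.0 CPM against 70.2 and 76.3 in WT. Spermatocyte markers summed to 2930 to 3120 CPM against 4570 and 5680, with 7 of 10 lower, and 4 of 8 spermatogonia markers were lower and 1 higher, where 28.1% of all genes were called lower. The part of these shifts was not tested.

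In the SC libraries labelled CTCF HET 1 of 5 genes tested, Tssk2, was higher (all genes, 6.77%). It was at 7.52, 11.7 and 8.01 CPM against 2.96 and 3.06 in WT (log2 1.72 ± 0.33, adjusted p = 0.0170), and was not called without either WT library or without CTCF HET replicate 2. In those labelled CM 0 of 5 passed (0.604%), 3 of 5 at an unadjusted p of 0.05 against 4391 of 14747 genes. Tssk2 was at 3.66, 9.42 and 13.4 CPM (log2 1.54 ± 0.52, adjusted p = 0.117), Tssk3 at 1.33, 2.28 and 3.04 (log2 1.55 ± 0.47) and Tssk4 at 3.03, 4.94 and 5.47 (log2 1.5 ± 0.35), each above both WT libraries. DESeq2 called these 3 genes higher, and so did edgeR without CM replicate 1 (17.9% of all genes). Tssk1 (log2 0.24 ± 0.22) and Tssk5 (log2 1.23 ± 1.66) were less clear. Tssk6, which was not tested, lay lower in CM SC, at a mean of 0.0248 CPM against 0.134 in WT, with at most 11 counts in any of these libraries. The late spermatid sum was 281, 300 and 124 CPM in CTCF HET SC and 80.6, 196 and 360 in CM SC, by replicate. The part of these sums in the result was not tested.

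The effects in RS and SC were therefore set against each other, which was decided after both had been seen. The effect of CTCF HET was lower in RS than in SC for 3 of 6 genes, Tssk2, Tssk4 and Tssk5 (all genes, 10.6%), that of BORIS KO for the same 3 (10.4%), and that of CM for 3, Tssk2, Tssk3 and Tssk4 (3.43%). For Tssk2 in CM it was log2 -2.82 ± 0.55 (adjusted p = 0.0217).

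The peak lists hold no replicates, and their heights and scores were not compared between lists. Near active promoters Pol2 (RNA polymerase II) and H3K4me3, a histone mark of such promoters, are found, and all 6 genes had a peak of each within 2 kb in both WT and CM, where 46.0 and 52.7% of 22380 protein-coding genes had a Pol2 peak and 60.3 and 60.1% an H3K4me3 peak. Tssk1 and Tssk2 lay in a single Pol2 peak of 12568 bp in WT and 12681 bp in CM. The WT H3K4me3 peak at Tssk2, 6385 bp long, was in the upper 0.0757% of its list. Only at Tssk5 did no H3K4me3 peak cover the start. Its WT peak within 2 kb lay past the end of the gene, the one nearest to the start was 4493 bp upstream, and the CM peak began 147 bp downstream.

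CTCF and BORIS peaks were found at 2 genes. In WT, Tssk3 and Tssk6 had a CTCF peak within 2 kb, as did 48.9% of protein-coding genes, and the same 2 had a BORIS peak, as did 21.5%. In CM a CTCF peak was listed at Tssk6 but not at Tssk3 (32.5% of protein-coding genes). At Tssk3 the WT CTCF peak chr4:129168059-129169179 covered the start and held the BORIS peak, and no CM CTCF peak lay nearer than 23433 bp. At Tssk6 the WT CTCF peak chr8:72425164-72425671, with its summit at -596 bp from the start and inside Ndufa13, overlapped the CM peak chr8:72425367-72425594, while a second WT peak, chr8:72426368-72427077, in the gene had no counterpart. A CM CTCF peak overlapped 56.1% of the whole WT CTCF list and 56.6% of the WT BORIS list.

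**Figure D5:**
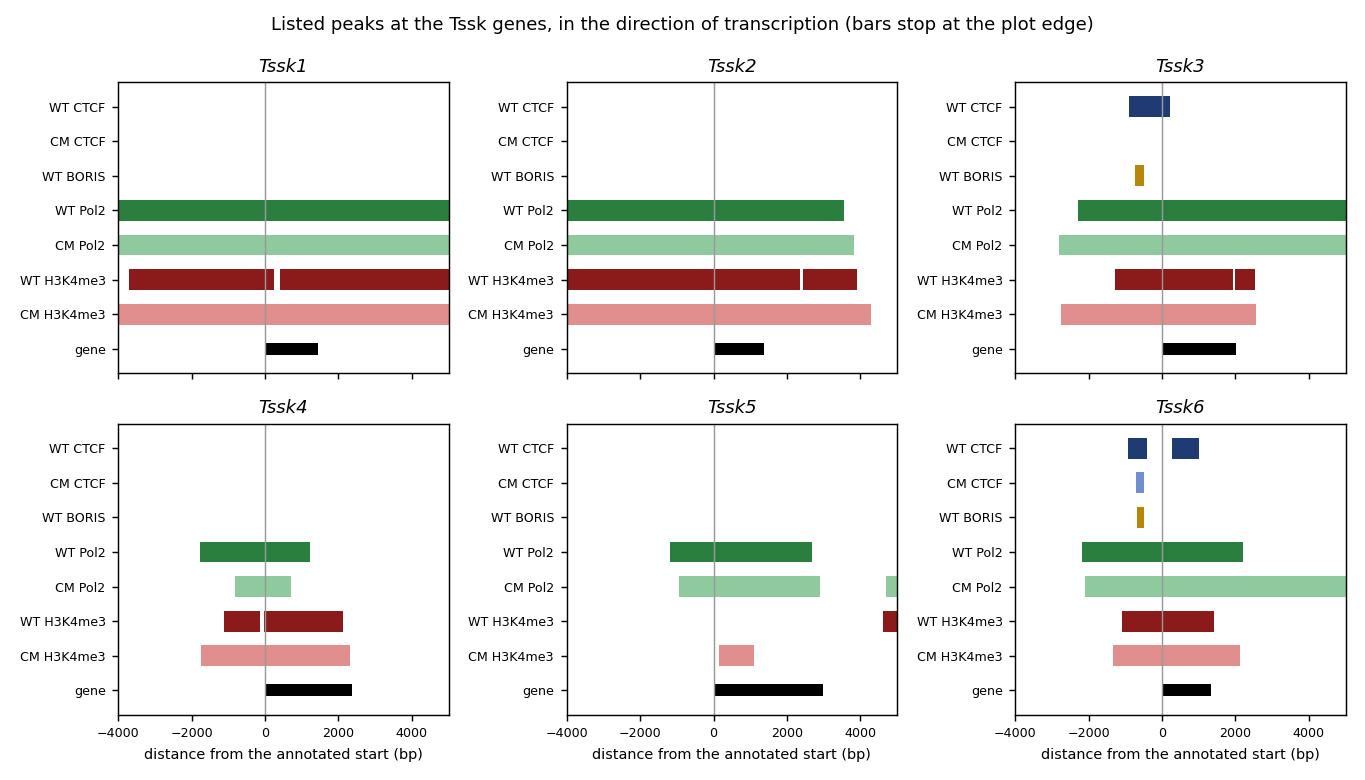
Peaks of the 7 lists at each Tssk gene, as distance from the annotated start in bp in the direction of transcription, with the gene as a black bar. Tssk3 has CTCF and BORIS peaks in WT and no CTCF peak in CM, Tssk6 has 1 of its 2 WT CTCF peaks in CM, and all 6 genes have Pol2 and H3K4me3 peaks in both.

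A stretch at each gene is shown because the CM CTCF list keeps a peak at Tssk6 and none at Tssk3. The CM peak at Tssk6 was low in its list, where 84.9% of peaks were at least as high. The WT peak that it overlaps was in the upper 19.6% of the WT list. CTCF recognises a motif whose core is written here as CCNNNAGNNGGC, with AGNNGGC as its shorter part. The match is in capitals, on either strand:

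Tssk6 site, chr8:72425441-72425534, minus strand: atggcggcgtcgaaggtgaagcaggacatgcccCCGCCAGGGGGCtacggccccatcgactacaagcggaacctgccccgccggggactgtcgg

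Tssk3 site, chr4:129168750-129169006, plus strand: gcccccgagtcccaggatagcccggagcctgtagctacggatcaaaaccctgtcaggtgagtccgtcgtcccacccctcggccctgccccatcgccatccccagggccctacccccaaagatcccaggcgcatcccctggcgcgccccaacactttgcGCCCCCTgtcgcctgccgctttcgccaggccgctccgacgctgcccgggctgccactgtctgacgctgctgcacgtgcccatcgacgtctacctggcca

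The first lies in the coding sequence of Ndufa13 and holds the long core, 8 bases from the WT CTCF summit. The second is the whole BORIS peak, partly in the coding sequence of 1700125D06Rik, the neighbour of Tssk3, and holds only the short part, 8 bases from the BORIS summit. It does not hold the summit of the Tssk3 CTCF peak of WT, which lies at -178 bp from the start. The short part nearest to that CTCF summit was 112 bases away, so the stretch shown is not the sequence at the CTCF summit. Within 50 bases of the summit the long core was in 45.6% of WT CTCF, 49.0% of WT BORIS and 60.4% of CM CTCF peaks, and the short part, which every long core includes, in 66.5, 72.9 and 76.7%. In CM testes Tssk3, with a CTCF peak listed in WT alone, was at log2 -1.08 ± 0.41, and Tssk6, with one in both lists, at -1.13 ± 0.71. The 4 genes with none within 2 kb ran from -0.39 for Tssk5 to -1.09 for Tssk2 and Tssk4.

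The genes most like the family were those with the highest Pearson r between their log2 CPM and the mean of the centred members, which is a description, since libraries share genotype, preparation and depth. Over 12 whole testis libraries they were 4930544D05Rik, Wnt3, 1700001O22Rik, 4930511I11Rik and Tekt2, a gene of flagellar microtubules, at 0.986 or more. Over 23 RS and SC libraries they were Stard10, Hils1, a spermatid linker histone, 4930412F15Rik, Odf3 and 1700110M21Rik, at 0.990 or more. By Spearman's rho 3 and 2 of the 5 remained. Tsks had an r of 0.646 in whole testis and 0.962 in RS and SC. Among the members r was lowest in whole testis between Tssk5 and Tssk6, at 0.207, and highest between Tssk1 and Tssk6, at 0.967.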

How the data were processed

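Deposited were the authors' read counts for each gene symbol, not normalized, for whole testis (TopHat2 and Bowtie2) and for RS and SC (STAR), on mm9. The counting tool and the use of strand are not given in the sources used here. They also deposited, per the file headers and values, a height (signal) and summit for each CTCF and BORIS peak and a score for each Pol2 and H3K4me3 peak. How replicate ChIP libraries were combined is not given in the sources used here. BORIS KO and WT spermatocyte ChIP libraries were not analysed here. Samples were grouped by title. Replicates are separate samples, and where nothing states separate animals, p-values measure only the spread between these samples.

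Counts were filtered with filterByExpr (at least 10 counts, 15 in total), scaled by TMM and tested with edgeR 4.0.16 in R 4.3.3 by the quasi-likelihood F test with robust estimation, with Benjamini-Hochberg adjustment over all genes and a call at adjusted p under 0.05. The scripts were tested on simulated data, in which the share of false calls by edgeR was near its nominal level and that by DESeq2 above it. Levels are CPM, and between genes RPKM over annotated exons. Totals ran from 10437683 to 98545423 counts, and the floor of 3 counts used for Tssk6 covers counting error only. Whole testis libraries with the same replicate number deviated together in 18 of 18 pairs (correlation 0.113 to 0.621), while in RS this held for 3 of 18 pairs and in SC for 1 of 15. The main test took no account of this pairing, and the replicate block was run as an alternative. Peaks were assigned within 2 kb of a gene. Gene positions and sequences came from the mm9 genome and GENCODE annotation. GC content was known for 93.9 and 94.0% of genes.

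The members, lists and tests were chosen with earlier results of these data known. Named genes were the members, Ctcf, Ctcfl, the listed genes, the neighbours of the members and the 5 genes most alike by r. Alternatives were RLE scaling, DESeq2 1.42.0, no filter, all genotypes in 1 fit, a replicate block, a GC offset, the thresholds of the paper (adjusted p under 0.001 and 2-fold), other peak windows and leaving out each library. The contrast of effects in RS and SC and DESeq2 with those thresholds were added after seeing the data. In DESeq2, genes without an adjusted p were left out of counts.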

Additional observations from a re-analysis of the deposited data

Results flagged for a closer look

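The effect of a mutant differed between RS and SC for 10 results, as tested by the difference of both log2 changes against WT (edgeR quasi-likelihood test, Benjamini-Hochberg adjustment, RS minus SC). For CTCF HET it was -2.42 ± 0.23 for Tssk2, -1.50 ± 0.46 for Tssk4 and -2.06 ± 0.56 for Tssk5. Tssk6 gave 6.54 ± 1.27, but it had 0 counts in all 3 CTCF HET SC libraries, so this fitted value is no bound. Without either WT SC library 2 of these 4 stayed called. For BORIS KO it was -0.70 ± 0.17 for Tssk2, -0.80 ± 0.22 for Tssk4 and -1.23 ± 0.31 for Tssk5, a fit of all 8 groups called 0 of 6, and so did the test without WT RS replicate 2 or 3, BORIS KO RS replicate 1, either WT SC library or BORIS KO SC replicate 2. For CM it was -2.82 ± 0.55 for Tssk2, -2.62 ± 0.53 for Tssk3 and -2.49 ± 0.45 for Tssk4, and 0 were called without WT RS replicate 2 or 3, CM RS replicate 3 or either WT SC library. Late spermatid genes summed to 124 to 300 CPM in CTCF HET SC and 80.6 to 360 in CM SC, against 70.2 and 76.3 in WT SC, and their part was not tested.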

How the results depend on the processing

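Of 1776 alternative values of single members 1496 kept their direction and side of the threshold, 167 lost and 61 gained a call and 52 changed sign, and of 322 alternative counts 243 stayed within 1.5 times. The cause was not tested. Whole testis calls rest on 3 libraries a genotype, which limits them.

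With the GC offset, the members called were 4 for CM, whole testis (main 2), 4 for CTCF HET, RS (main 2), 1 for BORIS KO, RS (main 3), 2 for BORIS KO, SC (main 6), 1 for CM, SC (main 0) and 0 for genotype interaction, RS (main 4). With DESeq2, the members called were 1 for CM against BORIS KO, whole testis (main 0), 4 for CM, RS (main 0) and 3 for CM, SC (main 0). With DESeq2 and the paper's thresholds, the members called were 1 for CM, whole testis (main 2), 0 for CM against CTCF HET, whole testis (main 2), 0 for CTCF HET, RS (main 2), 1 for BORIS KO, RS (main 3), 1 for CM, RS (main 0), 1 for BORIS KO, SC (main 6), 2 for genotype interaction, RS (main 4) and 0 for BORIS KO effect, RS against SC (main 3). Without the filter, the members called were 1 for CM against CTCF HET, whole testis (main 2). With the replicate block, the members called were 1 for BORIS KO, whole testis (main 0), 5 for CM, whole testis (main 2), 6 for CM against CTCF HET, whole testis (main 2) and 4 for CM against BORIS KO, whole testis (main 0). With the paper's thresholds, the members called were 0 for CM, whole testis (main 2), 0 for CM against CTCF HET, whole testis (main 2), 0 for CTCF HET, RS (main 2), 1 for BORIS KO, RS (main 3), 0 for CTCF HET, SC (main 1), 1 for BORIS KO, SC (main 6), 3 for RS against SC, CTCF HET (main 6), 0 for RS against SC, CM (main 4), 0 for genotype interaction, RS (main 4), 1 for CTCF HET effect, RS against SC (main 4), 0 for BORIS KO effect, RS against SC (main 3) and 0 for CM effect, RS against SC (main 3). With all 4 genotypes in 1 fit, the members called were 1 for CM against BORIS KO, whole testis (main 0), 1 for CTCF HET, RS (main 2), 1 for BORIS KO, RS (main 3), 4 for CM, RS (main 0), 0 for BORIS KO, SC (main 6) and 1 for CM, SC (main 0). With all 8 groups in 1 fit, the members called were 0 for BORIS KO effect, RS against SC (main 3). With a window of 0 kb, the members with a peak were 0 for CM CTCF (main 1) and 0 for WT BORIS (main 2). In the upper 50% of the list, the members with a peak were 0 for CM CTCF (main 1). With a window of 10 kb, the members with a peak were 4 for WT BORIS (main 2).

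With the GC offset, the log2 change turned to -0.05 for Tssk2, CTCF HET, whole testis (main 0.08), -0.15 for Tssk3, BORIS KO, whole testis (main 0.01), -0.22 for Tssk1, CTCF HET, RS (main 0.02), -0.30 for Tssk6, CTCF HET, RS (main 0.43), -0.15 for Tssk1, BORIS KO, RS (main 0.43), -0.28 for Tssk3, BORIS KO, RS (main 0.28), -0.31 for Tssk5, BORIS KO, RS (main 0.34), 0.46 for Tssk1, CTCF HET, SC (main -0.01), 0.40 for Tssk2, genotype interaction, RS (main -0.36), 0.04 for Tssk5, genotype interaction, RS (main -0.83) and -0.98 for Tssk1, CTCF HET effect, RS against SC (main 0.12). With RLE scaling, the log2 change turned to -0.03 for Tssk3, BORIS KO, whole testis (main 0.01), 0.06 for Tssk1, CTCF HET, SC (main -0.01) and -0.25 for Tssk1, CTCF HET effect, RS against SC (main 0.12). With DESeq2, the log2 change turned to -0.03 for Tssk3, BORIS KO, whole testis (main 0.01), 0.06 for Tssk1, CTCF HET, SC (main -0.01) and -0.25 for Tssk1, CTCF HET effect, RS against SC (main 0.12). With DESeq2 and the paper's thresholds, the log2 change turned to -0.03 for Tssk3, BORIS KO, whole testis (main 0.01), 0.06 for Tssk1, CTCF HET, SC (main -0.01) and -0.25 for Tssk1, CTCF HET effect, RS against SC (main 0.12). Without the filter, the log2 change turned to -0.04 for Tssk3, BORIS KO, whole testis (main 0.01). With the replicate block, the log2 change turned to 0.16 for Tssk1, CTCF HET, SC (main -0.01) and -0.72 for Tssk5, CM, SC (main 1.23). With all 4 genotypes in 1 fit, the log2 change turned to 0.01 for Tssk1, CTCF HET, SC (main -0.01).

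Leaving out 1 library in turn, the members called ran from 0 to 3 for CM, whole testis, 0 to 2 for CM against CTCF HET, whole testis, 1 to 2 for CTCF HET, RS, 0 to 4 for CM, RS, 0 to 2 for CTCF HET, SC, 0 to 3 for CM, SC, 2 to 4 for CTCF HET effect, RS against SC, 0 to 3 for BORIS KO effect, RS against SC and 0 to 4 for CM effect, RS against SC, and the log2 changes that crossed 0 ran from -0.18 to 0.39 for Tssk1, CTCF HET, whole testis, -0.19 to 0.07 for Tssk4, CTCF HET, whole testis, -0.04 to 0.21 for Tssk2, CTCF HET, whole testis, -0.11 to 0.25 for Tssk3, CTCF HET, whole testis, -0.56 to 0.95 for Tssk6, CTCF HET, whole testis, -0.05 to 0.77 for Tssk6, BORIS KO, whole testis, -0.30 to 0.28 for Tssk1, BORIS KO, whole testis, -0.11 to 0.12 for Tssk3, BORIS KO, whole testis, -0.24 to 0.07 for Tssk5, BORIS KO, whole testis, -0.11 to 0.21 for Tssk1, CTCF HET, RS, -0.05 to 0.66 for Tssk6, CTCF HET, RS, -0.72 to 0.15 for Tssk6, CM, RS, -0.39 to 0.21 for Tssk1, CTCF HET, SC, -0.58 to 0.95 for Tssk3, CTCF HET, SC, -0.10 to 0.51 for Tssk1, CTCF HET effect, RS against SC, -1.04 to 0.49 for Tssk3, CTCF HET effect, RS against SC and -0.19 to 0.16 for Tssk1, BORIS KO effect, RS against SC.

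The replicate block changed no other call of a member count beyond 1.5 times, and in RS and SC the numbers did not pair the libraries. 3 and 2 of the 5 genes most like the family remained by Spearman's rho.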
